A study of Homo sapiens with 8 samples.

Results

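The transcripts described here are 45 interferon-stimulated genes, listed by name and grouped by the role of their products, in human PC3 prostate cancer cells that had undergone epithelial to mesenchymal transition (EMT). Of these, 44 had a probe set annotated with 1 gene symbol, among 19775 such genes on the arrays, and each gene was represented by its probe set with the highest mean over the 8 arrays. STAT2 was not analysed here. Of the 44 genes, 23 had more than 1 such probe set.

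Interferons are secreted proteins that signal through cell surface receptors and the JAK kinases to transcription factors, IRF9 among them, that bind a short DNA element, the interferon-stimulated response element (ISRE). The induced genes encode sensors of foreign RNA and DNA, proteins that bind or destroy viral RNA, GTPases and membrane proteins that block viruses, the ubiquitin-like modifier ISG15 with its enzymes, and chemokines. Many cancer cell lines express part of this program in culture without added interferon.

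RNA was measured with Affymetrix oligonucleotide arrays on cells plated before harvest. The 3 mesenchymal lines (EMT, 1 array each), called PC3-EMT1, PC3-EMT12 and PC3-EMT14, had been isolated from PC3-Epi cells grown together with human macrophages derived from IL4-treated CD14+ monocytes, and were passaged apart from them. PC3-Epi (1 array) is the luciferase-positive epithelial derivative of PC3 from which they came. Arrays were also run for PC3-EMT1 and for PC3-EMT14 after lentiviral transduction with a short hairpin RNA against ZEB1, a repressor of epithelial genes (sh4, 2 arrays), or with a scrambled hairpin (Scr, 2 arrays). The authors name no interferon treatment of the cell lines themselves. Their methods also describe macrophages made with interferon gamma and grown with PC3-Epi, beside those made with IL4. PC3-Epi has no replicate, each line has 1 array per state and 1 ZEB1 hairpin was measured, so p-values reflect the scatter among these few arrays alone, and that scatter may be technical.

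All values are log2 values made by the authors with the RMA method, and a difference of 1 is 2-fold. The untransduced and transduced arrays had been scaled apart, since the median of 27 bacterial control probe sets was 3.68 to 3.82 on each transduced array but 2.44 to 2.63 on each untransduced one. Levels were therefore compared only within each of these sets, and a gene was tested only where at least 1 array of the comparison exceeded the highest bacterial control of its own set (4.563 untransduced, 6.002 transduced). CDH1 (E-cadherin) stood at 3.07, 3.61 and 4.00 in the EMT lines against 11.31 in PC3-Epi, and at 9.63 and 9.75 in sh4 against 5.61 and 5.89 in Scr. In every EMT line, 6 of 6 epithelial markers were at least 2-fold below PC3-Epi and 3 of 5 mesenchymal markers 2-fold above. FN1, a mesenchymal marker, differed by -0.37. In both lines, sh4 was at least 2-fold above Scr for 4 of the 6 and 2-fold below for 1 of the 5. The mesenchymal marker CDH2 was higher in sh4 (10.13 against 9.94 in PC3-EMT1, 10.34 against 9.62 in PC3-EMT14). ZEB1 was lower in sh4 than in Scr in both lines, by 0.74 in PC3-EMT1 and 1.07 in PC3-EMT14. Of 15 macrophage markers measured, 2 exceeded the bacterial controls on each untransduced array and 4 or 5 on each transduced array, and CD14 and CD163 exceeded them on none.

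The ISRE was looked for in the promoters of these genes. In the RefSeq promoter table (GRCh38.p14, 250 bases before to 50 after the annotated start of each gene), 36 of the 44 genes were found. The ISRE core GAAANNGAAA, searched on both strands, lay in 22 of the 36 (61.1%) and in 996 of all 27305 promoters (3.65%). The GAS core TTCNNNGAA, the element of interferon gamma signalling, lay in 11 of the 36 (30.6%) and in 2152 of all promoters (7.88%). Of the 36, 10 were among the genes that passed the test between PC3-EMT1 and PC3-EMT14 described later, and 8 of these 10 (80.0%) held the ISRE core against 14 of the other 26 (53.8%). The GAS core went the other way, with 2 of the 10 (20.0%) against 9 of the other 26 (34.6%). A match in the letters is not evidence that a factor binds there. The 200 bases before the start are shown for IFIT1, IFIT3, ISG15 and IFI44, which passed that test and hold the core, for their relatives IFIT5 and IFI44L, which did not pass, so that related promoters can be read side by side, and for RSAD2, which passed and holds no match. Each runs 5′ to 3′ along the gene, and capitals mark matches to the ISRE core on either strand, where the reverse reads TTTCNNTTTC and neighbouring matches may overlap.
IFIT1: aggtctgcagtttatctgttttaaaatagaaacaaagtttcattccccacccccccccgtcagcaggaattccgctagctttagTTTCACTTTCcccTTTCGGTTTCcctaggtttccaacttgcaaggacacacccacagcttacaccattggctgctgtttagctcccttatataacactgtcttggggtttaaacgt
IFIT3: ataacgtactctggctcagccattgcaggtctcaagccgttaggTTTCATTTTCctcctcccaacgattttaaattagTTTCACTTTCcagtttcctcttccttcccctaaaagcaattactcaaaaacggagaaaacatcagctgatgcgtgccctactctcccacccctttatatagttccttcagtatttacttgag
IFIT5: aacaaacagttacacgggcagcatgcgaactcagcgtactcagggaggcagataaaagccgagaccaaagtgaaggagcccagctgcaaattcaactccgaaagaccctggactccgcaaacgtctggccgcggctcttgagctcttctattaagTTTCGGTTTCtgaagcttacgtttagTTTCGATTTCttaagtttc
IFI44: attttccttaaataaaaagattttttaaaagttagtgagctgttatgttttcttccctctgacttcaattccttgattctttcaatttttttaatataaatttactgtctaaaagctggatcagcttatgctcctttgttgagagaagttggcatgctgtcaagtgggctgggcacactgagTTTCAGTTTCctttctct
IFI44L: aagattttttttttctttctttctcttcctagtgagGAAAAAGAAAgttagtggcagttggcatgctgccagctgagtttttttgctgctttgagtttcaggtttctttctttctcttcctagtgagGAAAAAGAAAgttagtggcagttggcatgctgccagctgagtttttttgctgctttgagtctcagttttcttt
ISG15: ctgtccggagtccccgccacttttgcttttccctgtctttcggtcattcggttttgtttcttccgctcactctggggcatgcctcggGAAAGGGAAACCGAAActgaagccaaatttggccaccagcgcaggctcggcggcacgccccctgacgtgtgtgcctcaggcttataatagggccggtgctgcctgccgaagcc
RSAD2: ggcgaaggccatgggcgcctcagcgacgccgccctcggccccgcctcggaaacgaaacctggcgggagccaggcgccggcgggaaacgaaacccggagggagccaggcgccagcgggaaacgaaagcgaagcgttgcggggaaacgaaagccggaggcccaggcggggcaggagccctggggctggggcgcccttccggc
The IFIT genes, which encode proteins that bind foreign RNA by its end, lie beside each other on chromosome 10, with these windows at chr10:89392423-89392622 (IFIT1), chr10:89327797-89327996 (IFIT3) and chr10:89414368-89414567 (IFIT5), all on the plus strand. IFIT1 held 2 matches whose first bases lay 116 and 103 bases before the start, IFIT3 held 2 at 156 and 122 bases, and IFIT5 held 2 at 45 and 19 bases within the stretch shown. IFI44 (chr1:78649589-78649788, plus strand) held 1 match, 18 bases before the start, and its neighbour IFI44L (chr1:78620248-78620447, plus strand) held 2, at 164 and 73 bases. ISG15 (chr1:1013297-1013496, plus strand) held 2 overlapping matches, at 113 and 107 bases. The RSAD2 window (chr2:6865685-6865884, plus strand) held 0, and IRF9, which also passed, held 0 as well. The window of CMPK2, the neighbour of RSAD2, was chr2:6866636-6866835 on the minus strand, so the RSAD2 window lies downstream of the CMPK2 start. Only 1 annotated start per gene was searched, so the 0 does not cover any other RSAD2 start.

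The plot of levels by array shows 12 of these genes. OASL, IFIT1, IFIT3, ISG15 and IFI44 were far above the bacterial controls on every array, and the ubiquitin ligase TRIM22, XAF1, EPSTI1 and the T cell chemokines CXCL10 and CXCL11 were below them on every array.

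**Figure D1:**
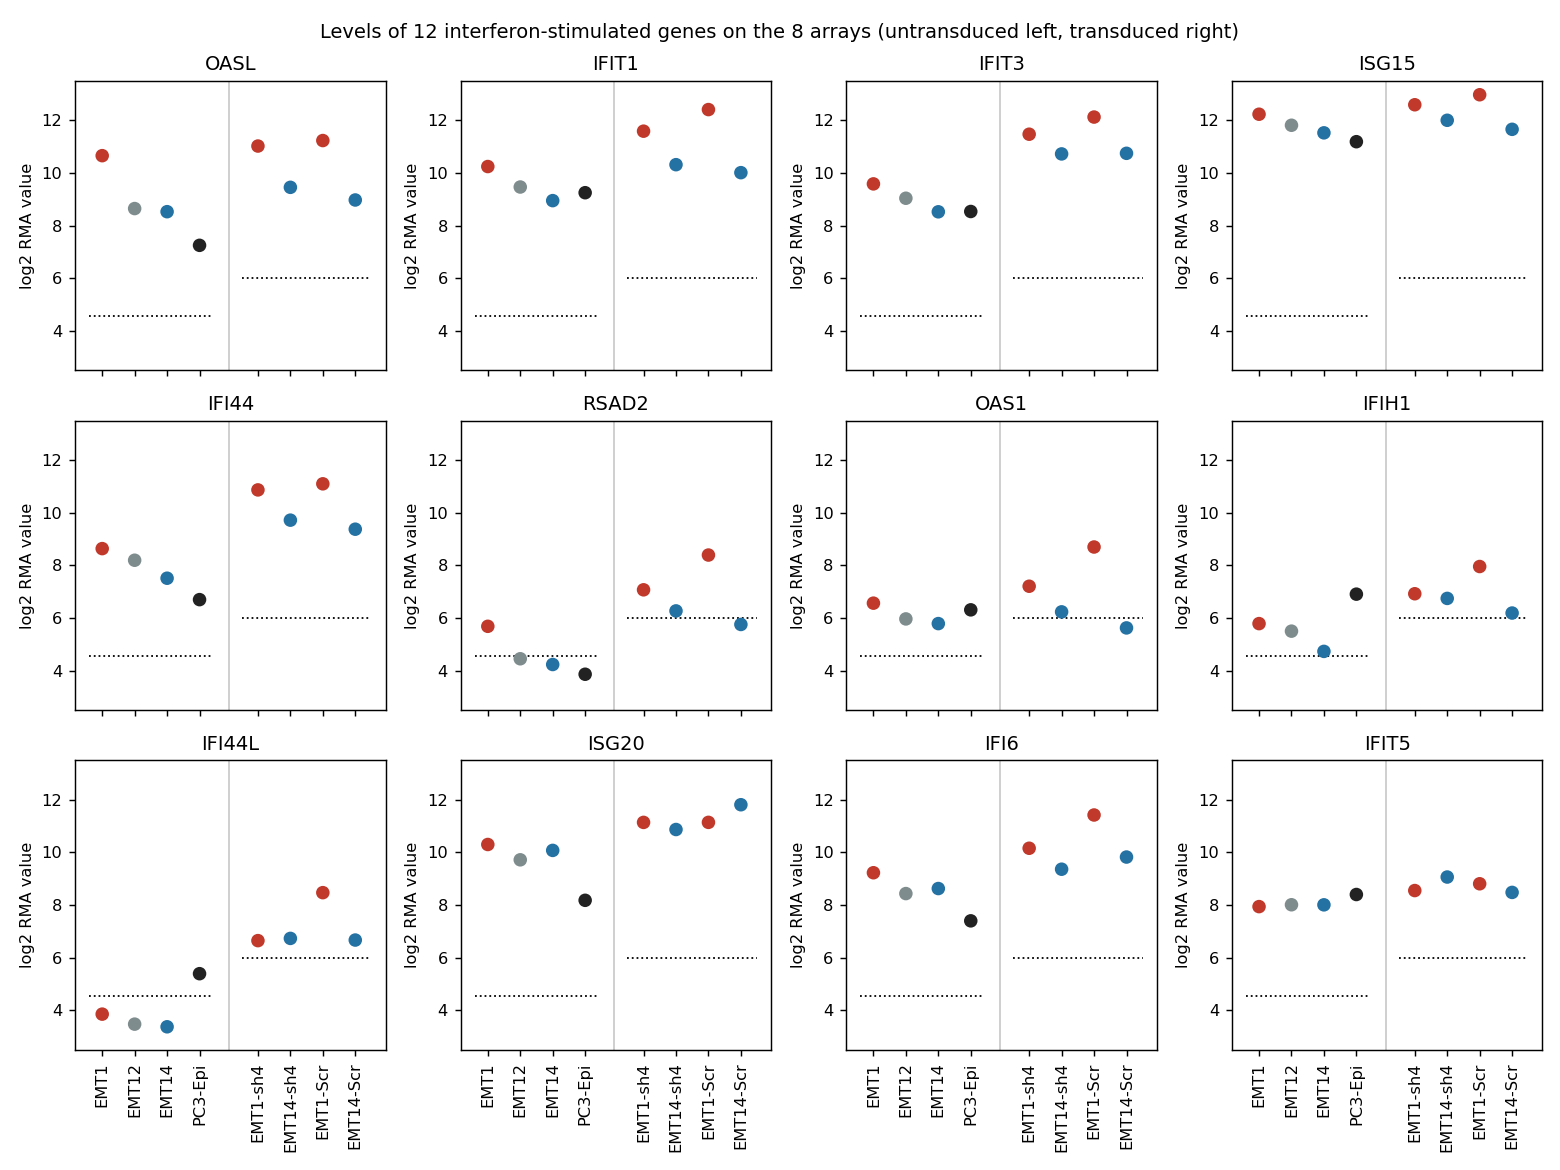
Log2 RMA value (y axis) of 12 interferon-stimulated genes on each of the 8 arrays (x axis), with EMT lines left of PC3-Epi and sh4 left of Scr. Red is PC3-EMT1, grey PC3-EMT12, blue PC3-EMT14 and black PC3-Epi, each point is 1 array, and the dotted lines are the highest bacterial control of each set (4.563 and 6.002). The red point lies above the blue one in all 3 states for OASL (10.66 against 8.53 in EMT), IFIT1, IFIT3, ISG15, IFI44, RSAD2, OAS1, IFIH1 and IFI6.

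The first comparison asked how the mesenchymal lines differed from PC3-Epi. The interferon-stimulated genes changed in both directions: ISG20, CMPK2, IFI35, IFI6, UBE2L6 and IFI44 rose, and IFI44L, IFIH1, GBP1 and PARP9 fell. Of the 38 tested, 6 (15.8%) were higher, against 13.1% of all 12824 genes tested, and 4 (10.5%) were lower, against 14.7% (limma, Benjamini-Hochberg adjusted p under 0.05). These shares are near those of all genes. Of the other 34 of the 44, 28 were tested without passing and 6 (MX2, TRIM22, XAF1, EPSTI1, CXCL10 and CXCL11) lay under the bacterial controls. By the 2-fold rule, 4 genes (ISG20, CMPK2, IFI6 and OASL) were at least 2-fold higher in all 3 lines, against 2.76% of genes, and 2 (IFI44L and IFIH1) were at least 2-fold lower as measured, against 4.68%, although IFI44L lay under the bacterial controls in all 3 lines, where its difference is only a bound. The median difference over the 44 genes was 0.27 in PC3-EMT1, 0.06 in PC3-EMT12 and -0.06 in PC3-EMT14, against 0.11, 0.07 and 0.10 over all 19775 genes.

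Among the effectors that act on RNA and nucleotides, ISG20, an exonuclease of single-stranded RNA, stood at 10.30 in PC3-EMT1, 9.72 in PC3-EMT12 and 10.08 in PC3-EMT14, against 8.18 in PC3-Epi (EMT lines are given in this order below). It rose by 1.85 ± 0.24 (standard error here and below; adjusted p = 0.00535), and all 3 lines lay well above PC3-Epi. CMPK2, a mitochondrial nucleotide kinase encoded beside RSAD2, stood at 7.87, 8.14 and 7.69 in the EMT lines and at 6.43 in PC3-Epi, a rise of 1.47 ± 0.20 (adjusted p = 0.00661). RSAD2 (viperin), which makes a nucleotide that ends viral RNA chains, exceeded the bacterial controls in PC3-EMT1 only, with 5.69 there, 4.45 and 4.23 in PC3-EMT12 and PC3-EMT14 and 3.86 in PC3-Epi (0.93 ± 0.54, adjusted p = 0.235). CMPK2 was thus above PC3-Epi in all 3 lines. For its neighbour RSAD2, PC3-EMT12, PC3-EMT14 and PC3-Epi lay under the bacterial controls, so whether these lines moved alike cannot be read. DDX60, a helicase that aids RNA sensing, stood at 5.23, 4.98 and 4.37 in the EMT lines and at 5.54 in PC3-Epi (-0.68 ± 0.33, adjusted p = 0.166), and SAMD9 and SAMD9L, which restrict poxviruses, stood within 0.12 of PC3-Epi on average without passing.

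Of the small induced proteins, IFI6, which sits in mitochondrial and endoplasmic reticulum membranes, stood at 9.23, 8.44 and 8.63 in the EMT lines and at 7.40 in PC3-Epi (1.36 ± 0.31, adjusted p = 0.0259). IFI35, a leucine zipper protein that partners NMI, stood at 8.93, 8.42 and 8.66 against 7.48 in PC3-Epi (1.19 ± 0.22, adjusted p = 0.0149). IFI44 stood at 8.64, 8.20 and 7.51 in the EMT lines and at 6.70 in PC3-Epi (1.42 ± 0.40, adjusted p = 0.047). For each of these 3 genes every EMT line exceeded PC3-Epi. The IFI44 call did not hold with the mean of its 2 probe sets (0.50) or without PC3-EMT12 (1.38). It was also lost with no filter (1.42), after cyclic loess (1.36) or with 32 added on the linear scale (1.19). The second IFI44 probe set gave -0.41, with every untransduced array under the bacterial controls. IFI44L, the neighbour of IFI44, went the other way: it stood at 3.86, 3.48 and 3.37 in the EMT lines, all under the bacterial controls, and at 5.39 in PC3-Epi (-1.82 ± 0.22, adjusted p = 0.00427), so it was at least 1.78-fold higher in PC3-Epi when the EMT lines are set at the control limit. IFI27, another small membrane protein of this group, differed by -0.88 ± 0.44 (adjusted p = 0.179), with PC3-EMT1 (4.90) near PC3-Epi (5.06) and PC3-EMT12 and PC3-EMT14 (3.80 and 3.83) under the bacterial controls.

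Of the 4 cytosolic sensors, 1 passed the test. IFIH1 (MDA5), the sensor of long double-stranded RNA, stood at 5.79, 5.50 and 4.73 in the EMT lines and at 6.91 in PC3-Epi, a fall of -1.57 ± 0.39 (adjusted p = 0.0332), and every EMT line lay at least 2-fold below PC3-Epi. RIGI, the sensor of short RNA with a triphosphate end, differed by -0.57 ± 0.21 (adjusted p = 0.0899). Other RIGI probe sets gave mean differences of -0.74 and -0.83, and were not tested on their own. DHX58 (LGP2), which modulates the other RNA sensors, stood above PC3-Epi in all 3 lines, by 0.46, 0.49 and 0.39 (0.45 ± 0.14, adjusted p = 0.0614), and IFI16, a DNA sensor, differed by 0.27 without passing. The IFIH1 call was lost without PC3-EMT12 (-1.65). With the mean of its probe sets IFIH1 lay under the bacterial controls and was not tested.

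In the ISG15 pathway, UBE2L6, the conjugating enzyme that passes ISG15 to its targets, stood at 9.34, 8.81 and 9.08 in the EMT lines and at 8.12 in PC3-Epi (0.95 ± 0.22, adjusted p = 0.0289); without PC3-EMT14 its call was lost (adjusted p = 0.0627). ISG15 itself stood at 12.24, 11.82 and 11.53 in the EMT lines and at 11.19 in PC3-Epi (0.67 ± 0.27, adjusted p = 0.117). The ligase HERC5 (0.43 ± 0.38), its relative HERC6 (-0.70 ± 0.26) and USP18 (0.23 ± 0.15), which removes ISG15 and dampens the receptor, did not pass. Every EMT line had more UBE2L6 and ISG15 than PC3-Epi, whereas HERC6 was lower in every line.

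Among GTPases and membrane proteins, GBP1, a guanylate-binding GTPase, stood at 5.19, 4.60 and 4.82 in the EMT lines and at 5.75 in PC3-Epi (-0.88 ± 0.24, adjusted p = 0.0423). PARP9, PARP14 and DTX3L formed a separate group. PARP9, which works with the ubiquitin ligase DTX3L, stood at 7.11, 7.10 and 6.97 in the EMT lines and at 7.57 in PC3-Epi (-0.51 ± 0.15, adjusted p = 0.0473). DTX3L differed by -0.41 ± 0.15 (adjusted p = 0.0873). Both the GBP1 and the PARP9 calls were lost without PC3-EMT14 (adjusted p = 0.0926 and 0.185), GBP1 also without PC3-EMT12 (adjusted p = 0.0516) or with 32 added on the linear scale (0.0523), and PARP9 also without PC3-EMT1 (adjusted p = 0.0678), with no filter (0.0572), with the mean of its probe sets (0.0758), after quantile normalization (0.0643) or with trend and robust eBayes (0.0599). MX1, IFITM1, BST2 and PARP14 did not pass, with differences between -0.03 and 0.46.

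The transcription factors IRF1, IRF7 and IRF9 differed by 0.34, 0.61 and 0.09 without passing, and of the IFIT family none passed. OASL, a synthetase-like protein that enhances RNA sensing, had the largest mean difference of the 44 genes: it stood at 10.66, 8.65 and 8.53 in the EMT lines and at 7.25 in PC3-Epi (2.03 ± 0.81, adjusted p = 0.11). All 3 lines were more than 2-fold above PC3-Epi, but PC3-EMT1 lay 2.01 above PC3-EMT12, and without PC3-EMT1 the difference was 1.34 and passed (adjusted p = 0.00527). The other synthetases OAS1, OAS2 and OAS3, which make the oligoadenylates that activate RNase L, differed by -0.20, -0.02 and 0.06.

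**Figure D2:**
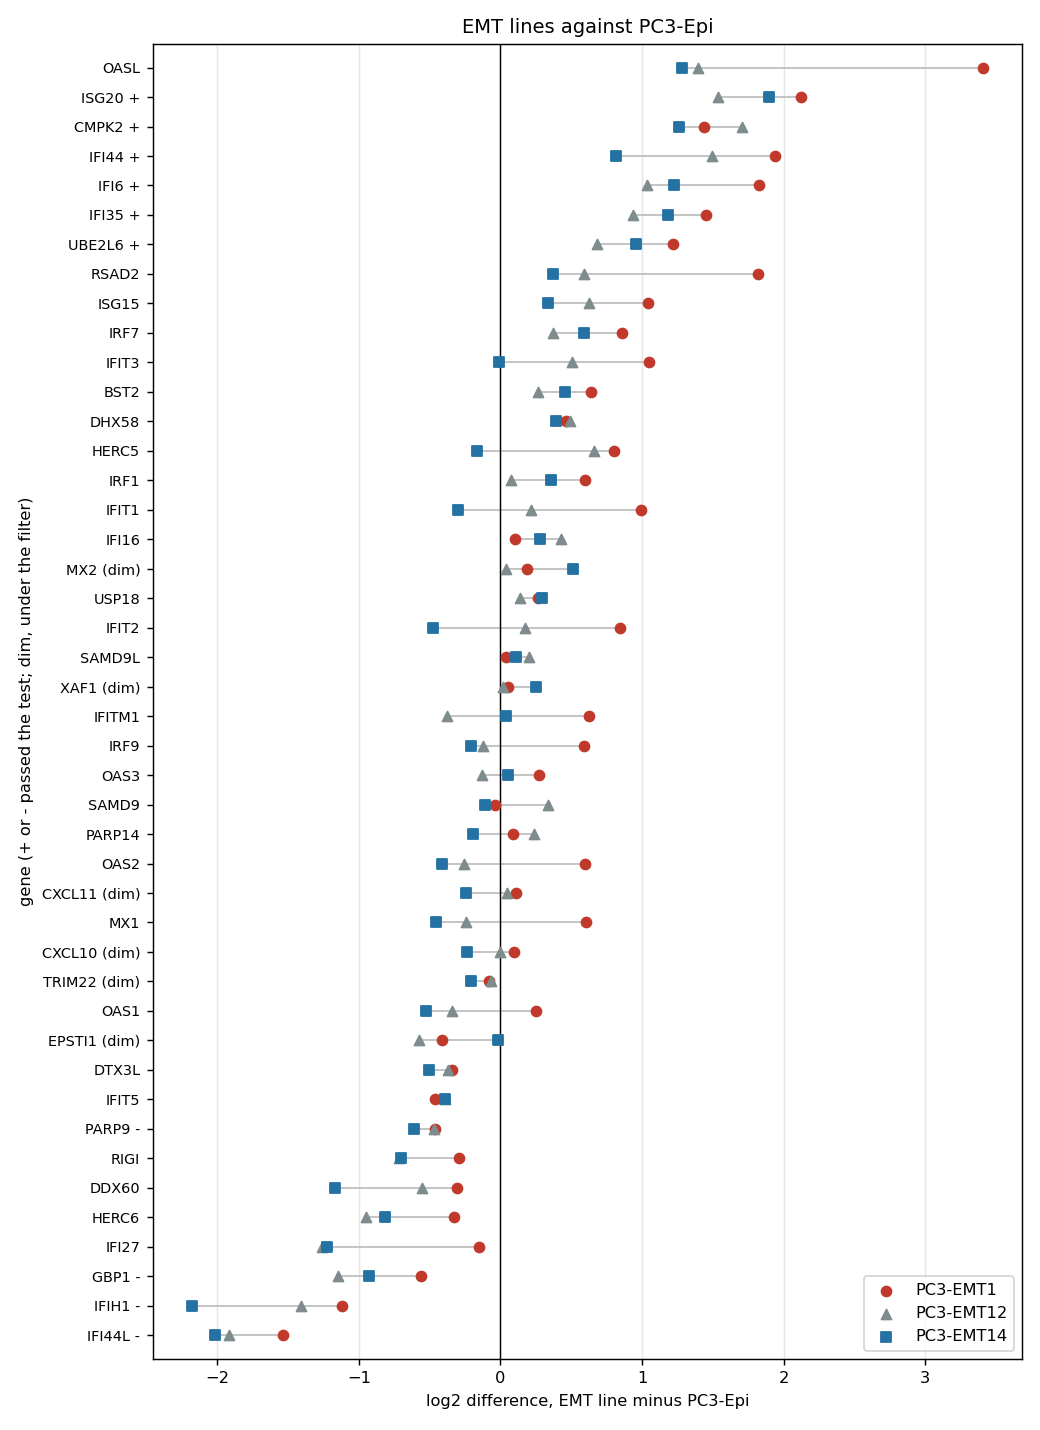
Log2 difference of each EMT line from PC3-Epi (x axis) for the 44 genes (y axis), ordered by the mean; red circles are PC3-EMT1, grey triangles PC3-EMT12 and blue squares PC3-EMT14, each from 1 array. The spread between lines is widest for OASL (3.41, 1.40 and 1.28), and IFI44L and IFIH1 lie left of 0 in all 3 lines.

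Within the EMT lines, PC3-EMT1 was the highest of the 4 untransduced arrays for 23 of the 44 genes, while 29.6% of all genes tested were highest there, and PC3-EMT14 was the highest for 3 (19.4% of genes). PC3-EMT14 was the lowest of the 4 arrays for 18 of the 44 (16.8% of genes). The second comparison was of PC3-EMT1 with PC3-EMT14, the lines that were also transduced, in the EMT, sh4 and Scr states. Its EMT difference uses the PC3-EMT1 and PC3-EMT14 arrays just ranked, so those ranks are not separate support for it. The 3 differences between the lines come from the same pair of lines, so the test asks how steady the gap was over arrays and not whether lines in general differ. It shares arrays with the comparisons of EMT with PC3-Epi and of sh4 with Scr.

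PC3-EMT1 had the higher level of much of this program in every state. Of the 39 genes tested, 13 were higher in PC3-EMT1 and 0 were lower, against 0.401% (57) and 2.05% (291) of all 14213 genes tested. The 13 were OASL, IFIT1, RSAD2, DDX60, IFI44, HERC5, IFIT2, OAS2, IFIT3, IFI6, ISG15, IRF9 and GBP1. OASL, IFIT1 and IFI44 were at least 2-fold higher in all 3 states, of 5 genes (0.0352%) that were so, and none of the 44 was at least 2-fold lower in all 3, against 0.197% of genes. The direction held in all 3 states for 29 of the 44 genes (65.9%), against 18.9% of all genes tested. The median gap over the 44 genes was 0.34 in EMT, 0.17 in sh4 and 0.99 in Scr, against 0.01, -0.01 and 0.02 over all genes. A gap of at least 2-fold was found for 10 of the 44 in EMT, 4 in sh4 and 22 in Scr, against 0.134%, 0.246% and 0.668% of all genes tested.

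**Figure D3:**
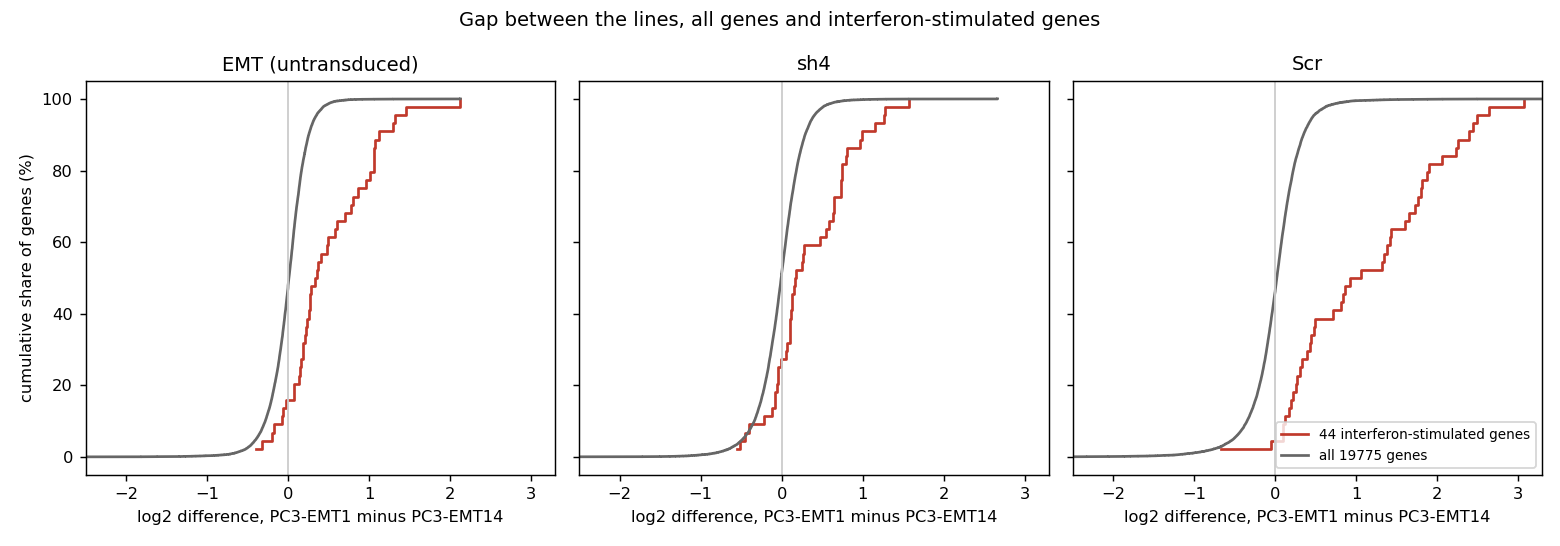
Cumulative share of genes (y axis, percent) by the log2 difference PC3-EMT1 minus PC3-EMT14 (x axis) in EMT, sh4 and Scr, for the 44 interferon-stimulated genes (red) and all 19775 genes (grey). The red curve lies to the right of the grey one over most of its length in each panel, and its median is 0.34 in EMT, 0.17 in sh4 and 0.99 in Scr.

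OASL had the largest gap of the 44 genes. It stood at 10.66 in PC3-EMT1 and 8.53 in PC3-EMT14 without transduction, at 11.03 and 9.46 with sh4 and at 11.24 and 8.98 with Scr. The gaps were 2.13, 1.57 and 2.26 (mean 1.99 ± 0.14, adjusted p = 0.00447), and a second OASL probe set gave 1.91, 1.72 and 2.03. The family members that make oligoadenylates followed with OAS2 at 6.62 and 5.61 in EMT, 6.94 and 6.40 in sh4 and 8.48 and 6.67 in Scr (1.12 ± 0.22, adjusted p = 0.0482). OAS1 had gaps of 0.78 in EMT, 0.97 in sh4 and 3.08 in Scr, the largest gap of any of the 44 genes in 1 state, and did not pass (1.61 ± 0.40, adjusted p = 0.0906). PC3-EMT14 with Scr (5.62) lay under the bacterial controls on the OAS1 probe set tested. A second OAS1 probe set gave gaps of 1.16, 1.15 and 2.62, with PC3-EMT14 in sh4 (5.98) under the bacterial controls. OAS3 did not pass either (0.76 ± 0.19, adjusted p = 0.0955).

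The IFIT proteins split by member. IFIT1, which binds RNA with an unmethylated cap, stood at 10.25 in PC3-EMT1 and 8.95 in PC3-EMT14 without transduction, at 11.59 and 10.32 with sh4 and at 12.42 and 10.02 with Scr (1.66 ± 0.22, adjusted p = 0.0183). IFIT3, its stabilising partner, stood at 9.59 and 8.53 in EMT, 11.48 and 10.73 in sh4 and 12.13 and 10.75 in Scr (1.06 ± 0.13, adjusted p = 0.0154). IFIT2 had gaps of 1.32, 0.47 and 1.90 in EMT, sh4 and Scr (1.23 ± 0.24, adjusted p = 0.0485). IFIT5, which binds RNA with a triphosphate end, had gaps of -0.07, -0.51 and 0.33 (-0.08 ± 0.16, adjusted p = 0.854), so that of the 4 paralogues IFIT1, IFIT2 and IFIT3 were higher in PC3-EMT1 and IFIT5 had no steady direction.

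In the ISG15 pathway the modifier and its ligase passed. ISG15 stood at 12.24 in PC3-EMT1 and 11.53 in PC3-EMT14 without transduction, at 12.60 and 12.01 with sh4 and at 12.98 and 11.66 with Scr (0.87 ± 0.15, adjusted p = 0.036). HERC5 had gaps of 0.97, 0.99 and 1.88 (1.28 ± 0.18, adjusted p = 0.0231). UBE2L6 (0.24 ± 0.10), USP18 (0.07 ± 0.11) and HERC6 (0.66 ± 0.23) did not pass, with adjusted p between 0.201 and 0.819.

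The effectors DDX60 and RSAD2 passed as well. DDX60 had gaps of 0.86, 1.27 and 2.23 in EMT, sh4 and Scr (1.45 ± 0.23, adjusted p = 0.031), the first with PC3-EMT14 (4.37) under the bacterial controls. RSAD2 had gaps of 1.45, 0.80 and 2.64 (1.63 ± 0.30, adjusted p = 0.0433), with PC3-EMT14 under the bacterial controls without transduction (4.23) and with Scr (5.76). Its neighbour CMPK2 had gaps of 0.18 in EMT, about 0 in sh4 and 1.66 in Scr and did not pass (adjusted p = 0.339). CMPK2, which stood 1.26 to 1.70 above PC3-Epi in the EMT lines, was thus close to equal between PC3-EMT1 and PC3-EMT14 outside the Scr state. ISG20 (-0.06 ± 0.18), SAMD9 (-0.02 ± 0.14) and SAMD9L (-0.17 ± 0.14) did not pass, and ISG20 was lower in PC3-EMT1 in the Scr state by 0.67.

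IFI44 stood at 8.64 in PC3-EMT1 and 7.51 in PC3-EMT14 without transduction, at 10.87 and 9.72 with sh4 and at 11.10 and 9.38 with Scr (1.33 ± 0.14, adjusted p = 0.00826). Its second probe set gave gaps of 0.80 in sh4 and 1.56 in Scr, and lay under the bacterial controls without transduction. IFI6 had gaps of 0.60, 0.80 and 1.60 (1.00 ± 0.18, adjusted p = 0.0443). IFI44L, IFI27 and IFI35 did not pass, with adjusted p of 0.28, 0.127 and 0.183.

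Of the transcription factors, IRF9, the subunit that contacts the ISRE, stood at 8.65 in PC3-EMT1 and 7.85 in PC3-EMT14 without transduction, at 9.22 and 8.57 with sh4 and at 9.98 and 8.91 with Scr (0.84 ± 0.11, adjusted p = 0.0183). IRF1 and IRF7 had mean gaps of 0.20 ± 0.09 and 0.22 ± 0.09 (adjusted p = 0.312 and 0.293). IRF9 was thus higher in PC3-EMT1 in each state, whereas the gap of IRF7, a factor that the program itself induces, was at most 0.27.

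Among the GTPases and membrane proteins GBP1 passed, with gaps of 0.37, 0.74 and 0.72 (0.61 ± 0.11, adjusted p = 0.0425). Of its 3 other probe sets, 2 had gaps above 0 in every state, and 1 lay under the bacterial controls on all arrays. MX1, a GTPase that traps viral nucleoproteins, stood at 7.63 in PC3-EMT1 and 6.57 in PC3-EMT14 without transduction, at 8.34 and 7.60 with sh4 and at 9.77 and 7.27 with Scr (1.43 ± 0.30, adjusted p = 0.0587). IFITM1, which blocks entry of viruses, had gaps of 0.58, 0.65 and 2.45 (1.23 ± 0.33, adjusted p = 0.108). MX1 and IFITM1 were higher in PC3-EMT1 in every state, but without passing the test. MX2 and BST2 did not pass, nor did PARP9, PARP14 or DTX3L, or the sensors RIGI, IFI16 and DHX58. The tested RIGI probe set had gaps of 0.41, -0.06 and 0.81 in EMT, sh4 and Scr. Another RIGI probe set gave 0.68, 0.47 and 0.93, and a further one 1.11, 0.65 and 1.19. The sensor IFIH1 had gaps of 1.06, 0.18 and 1.77 (adjusted p = 0.0985).

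The 13 calls rest in part on the untransduced arrays. Without them, the 2 remaining differences left 0 calls among the 44 and 0 among all genes at the same threshold, with mean gaps of 0.73 to 1.91 for the 13 genes. Without the sh4 arrays 13 genes passed, 10 of them among the original 13, and DDX60 (adjusted p = 0.0678), GBP1 (0.127) and IFI6 (0.0792) did not. Without the Scr arrays 16 passed, the original 13 among them. With the mean of each gene's probe sets 9 of the 13 passed, and RSAD2 (adjusted p = 0.0601), OAS2 (0.0834), GBP1 (0.0754) and IFI6 (0.0508) did not. Of the 10 other probe sets of the 13 genes, in 7 genes, 9 had a gap above 0 in all 3 states, though not all of them exceeded the bacterial controls.

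**Figure D4:**
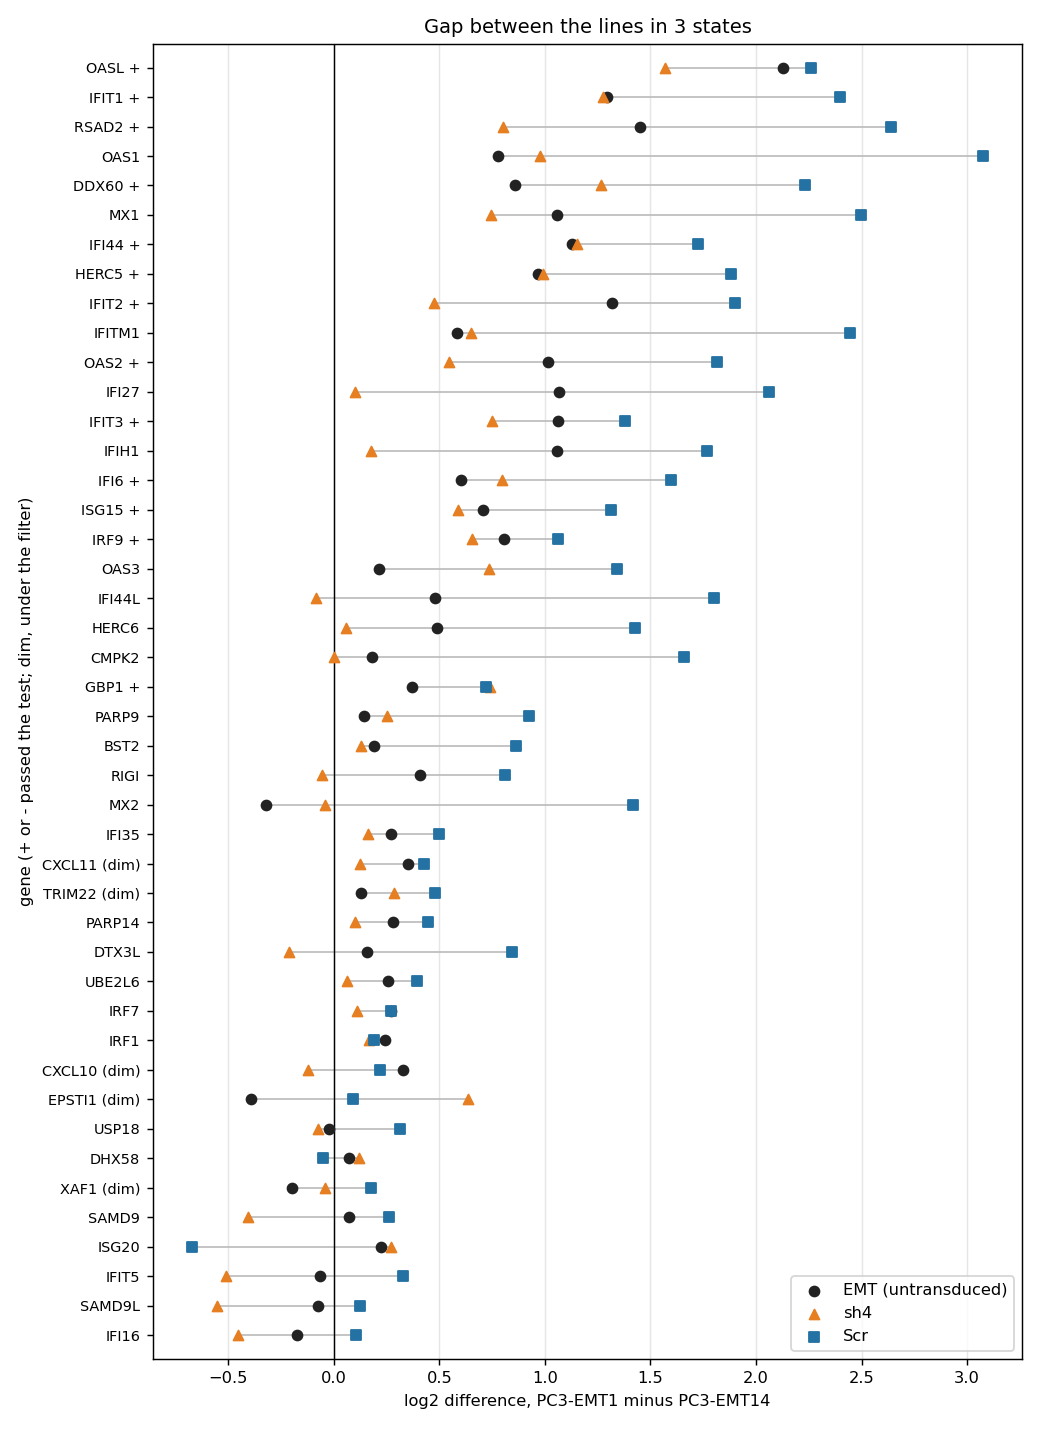
Log2 difference PC3-EMT1 minus PC3-EMT14 (x axis) for the 44 genes (y axis), ordered by the mean gap; black circles are untransduced EMT, orange triangles sh4 and blue squares Scr, each a difference between 2 arrays, and + marks genes that passed the test. The Scr gap is the largest of the 3 for 38 of the 44 genes, against 34.4% of all genes tested, reaching 3.08 for OAS1.

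The third comparison asked what the ZEB1 hairpin did to this program. No gene of the 44 passed the test of sh4 against Scr over both lines (limma with the line as a block, 38 tested, 2 at an unadjusted p under 0.05, IFI6 and IRF9), while 4 of 14008 genes were higher (0.0286%) and 0 were lower (0%). DHX58, TRIM22, XAF1, EPSTI1, CXCL10 and CXCL11 lay under the bacterial controls on all 4 transduced arrays. None of the 44 was at least 2-fold higher or lower in both lines, against 0.328% and 0.157% of genes. IFI6 stood at 10.16 with sh4 against 11.42 with Scr in PC3-EMT1, and at 9.36 with sh4 against 9.83 with Scr in PC3-EMT14 (-0.86 ± 0.23, adjusted p = 0.282). IRF9 stood at 9.22 with sh4 against 9.98 with Scr in PC3-EMT1, and at 8.57 with sh4 against 8.91 with Scr in PC3-EMT14 (-0.55 ± 0.15, adjusted p = 0.284). Both genes were lower with sh4 in each line, but by less than the test could separate with 1 residual degree of freedom.

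The lines gave different values. In PC3-EMT1 the median difference sh4 minus Scr over the 44 genes was -0.63, against 0.02 over all genes, with 40 of the 44 below 0, while 53.2% of all genes were above 0, and 11 at least 2-fold lower, against 0.507% of genes tested. In PC3-EMT14 it was 0.13, against 0.04 over all genes, with 27 of the 44 above 0, against 56.2% of all genes, and 0 at least 2-fold apart in either direction. For 23 of the 44 genes (52.3%) sh4 was below Scr in PC3-EMT1 and above it in PC3-EMT14, a pattern seen in 19.9% of all genes tested; 17 were lower in both lines, against 31% of genes, and 4 were higher in both, against 33.3%. The response of PC3-EMT1 minus that of PC3-EMT14 was -1 or less for 14 of the 44, against 0.714% of genes, and 1 or more for 0, against 0.557%. With 4 arrays this difference of responses had no residual degree of freedom and was not tested.

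OAS1 stood at 7.21 with sh4 and 8.70 with Scr in PC3-EMT1, and at 6.23 with sh4 and 5.62 with Scr in PC3-EMT14, the last under the bacterial controls. IFI44L stood at 6.65 with sh4 and 8.47 with Scr in PC3-EMT1, and at 6.73 with sh4 and 6.67 with Scr in PC3-EMT14. IFITM1 stood at 7.59 with sh4 and 9.76 with Scr in PC3-EMT1, and at 6.95 with sh4 and 7.32 with Scr in PC3-EMT14, the largest fall of the 44 genes in 1 line (-2.17). For each of these 3 genes the array of PC3-EMT1 with Scr was the highest of the 4 transduced arrays by more than 2-fold. MX1 also showed this, at 8.34 with sh4 and 9.77 with Scr in PC3-EMT1 and at 7.60 with sh4 and 7.27 with Scr in PC3-EMT14.

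That single array, PC3-EMT1 with Scr, was the highest of the 4 transduced arrays for 38 of the 44 genes, while 22.0% of all genes tested were highest there. The smaller values in sh4 of PC3-EMT1 and the larger gap in Scr share this array and cannot be told apart. In the 3 arrays that remain without it, sh4 of PC3-EMT1 exceeded sh4 of PC3-EMT14 for 32 of the 44 genes (median 0.17), and for 48.8% of all genes. ISG20 was an exception, with 11.14 in both PC3-EMT1 arrays, 10.87 with sh4 in PC3-EMT14 and 11.82 with Scr in PC3-EMT14, so that its only sizeable change was a lower value with sh4 in PC3-EMT14 (-0.94). DDX60 was barely lower with sh4 in PC3-EMT1 (9.55 against 9.72 with Scr) and higher with it in PC3-EMT14 (8.28 against 7.48 with Scr).

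**Figure D5:**
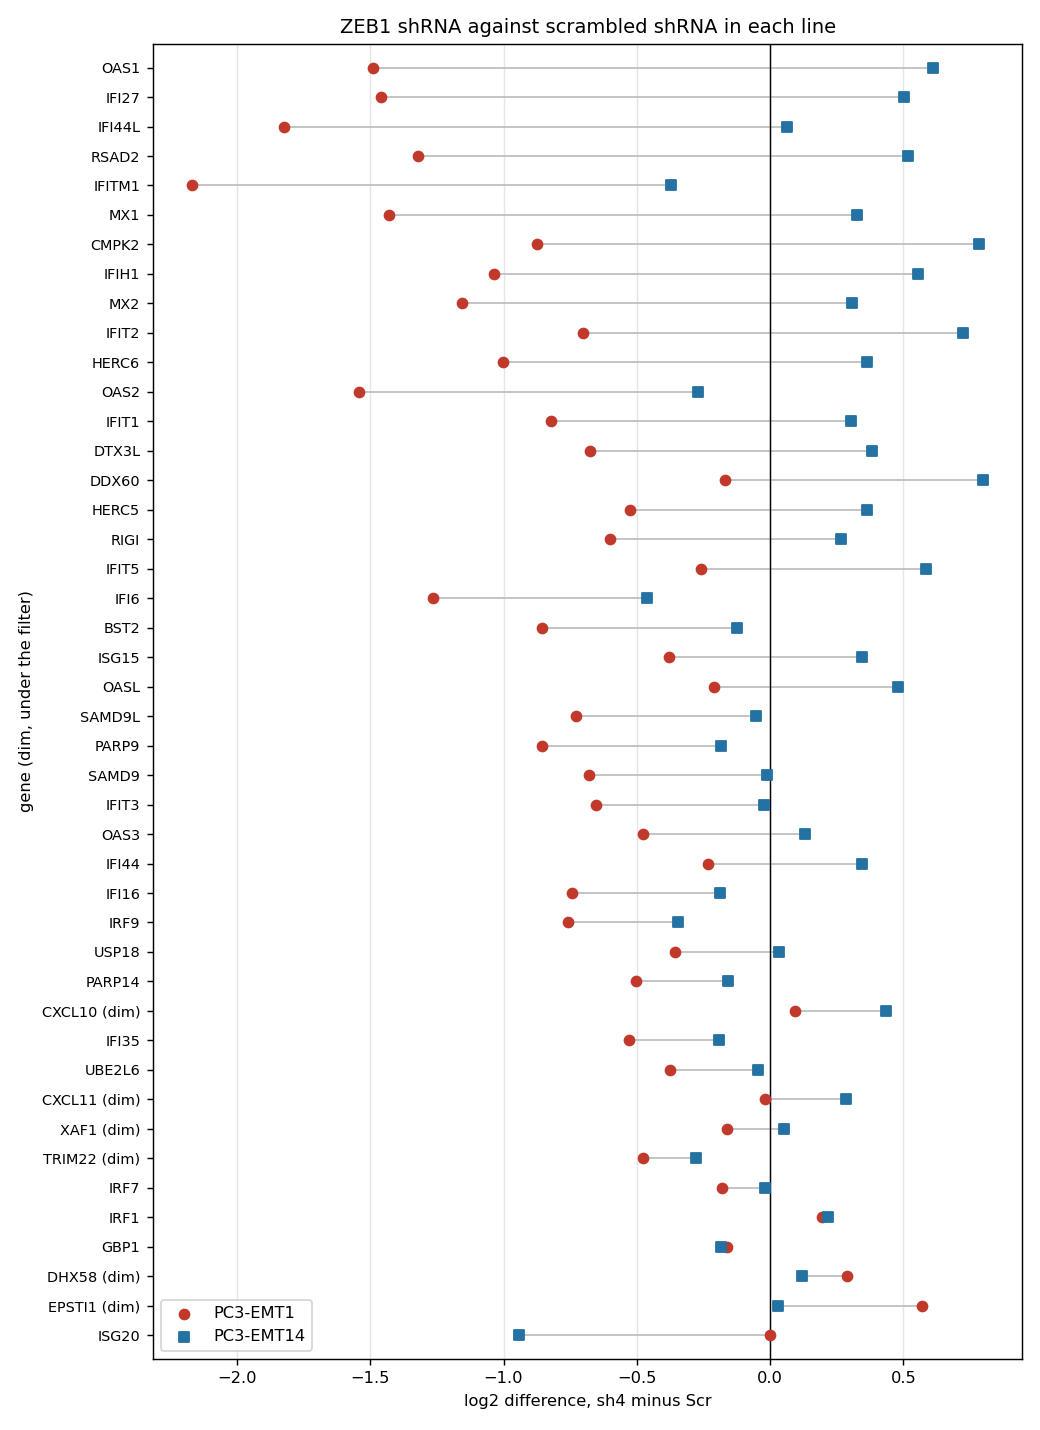
Log2 difference sh4 minus Scr (x axis) for the 44 genes (y axis) in PC3-EMT1 (red circles) and PC3-EMT14 (blue squares), each a difference between 2 arrays, ordered by the difference between the lines. Most red circles lie left of 0, down to -2.17 for IFITM1, and most blue squares lie between -0.5 and 0.8.

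Genes upstream of the program and others around it were described from separate lists, whose calls between the EMT lines and PC3-Epi are to be read against the 13.1% higher and 14.7% lower of all genes. All 8 interferon genes measured lay under the bacterial controls on every untransduced array, and of the transduced arrays only IFNL1, an interferon lambda, exceeded them, at 6.15 and 6.33 in sh4, against 5.76 and 5.61 in Scr, which lay under them. Of 9 receptor and kinase genes, 3 were higher in the EMT lines than in PC3-Epi (the kinase TYK2 by 1.28, the receptor chains IFNGR2 by 0.77 and IFNAR2 by 0.59) and 2 were lower (the kinase JAK2 by -1.30 and the interferon lambda receptor chain IFNLR1 by -0.80). Of 12 sensing and signalling genes tested, STING1, the adaptor of DNA sensing, was higher (1.28) and TBK1 (-0.58) and MYD88 (-0.50) were lower. Of 7 genes that restrain the response, SOCS3 was higher (1.05) and PTPN2 lower (-0.58). Of 14 further induced genes tested, SP110 (1.08) and ZNFX1 (0.88) were higher and EIF2AK2, the RNA-activated kinase PKR, was lower (-0.86). In the comparison of PC3-EMT1 with PC3-EMT14, none of the genes tested in these 5 lists passed (1, 9, 13, 7 and 14 tested), and the median gap of the receptors and kinases was 0.02, that of the further induced genes 0.22. PLSCR1, one of the further induced genes, had the largest gap of that list (0.71 without passing).

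Most markers of macrophages, the cells with which the EMT lines had been grown, lay under the bacterial controls on every array. Exceptions included LAPTM5 (5.57 in PC3-EMT1) and CSF1R (6.71 to 6.79 on the transduced arrays). Sums over the markers therefore include many values that cannot be told from background. The summed linear level of the 15 markers was 220 to 225 in the EMT lines against 203 in PC3-Epi, with 220 in PC3-EMT1 against 225 in PC3-EMT14. It was 798 with sh4 against 806 with Scr in PC3-EMT1, and 772 with sh4 against 751 with Scr in PC3-EMT14. None of the macrophage markers tested passed in any of the 3 comparisons (2, 5 and 5 tested).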

How the data were processed

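The authors made log2 values by RMA (affy) from 1 Affymetrix array per sample, and the deposited values were not altered. Probe sets with 1 gene symbol were used (41091 of 54675). The fits used limma 3.58.1 under R 4.3.3 (lmFit, eBayes) over all genes kept, with Benjamini-Hochberg adjustment and a threshold of 0.05. EMT against PC3-Epi was fitted by group on the 4 untransduced arrays, the lone PC3-Epi array being assumed to vary like the EMT lines. The fit of sh4 against Scr used the 4 transduced arrays with the line as a block, and PC3-EMT1 minus PC3-EMT14 the 3 differences within EMT, sh4 and Scr. Replicate numbers name the cell line and so pair arrays: over 14213 genes, deviations of arrays of the same line correlated at 0.39 to 0.50 between states. The number of arrays limits the precision. The genes, their grouping and the other lists were chosen with earlier results of these data known. Values by array, or only differences between arrays, are given for genes that passed a test or the 2-fold rule and for the largest differences of each role. DHX58, IRF7, IFIT2, OAS2, OASL, MX2, USP18 and TRIM22 were not matched in the promoter table. The fits were also run on simulated data with known changes, where noise was drawn independently for each array. That run had no correlation between arrays of the same line, so it does not show how the fits behave with it. Alternatives comprised other filters, averaged probe sets, other scalings, 32 added on the linear scale, eBayes with a trend and robust, other fold limits, fits with and without the line block, and leaving out arrays.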

Additional observations from a re-analysis of the deposited data

Results flagged for a closer look

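For 12 of the interferon-stimulated genes that were above the bacterial controls on a transduced array, the level with sh4 was below that with Scr in PC3-EMT1 and above it in PC3-EMT14, and the responses differed by at least 1 on the log2 scale. Of all genes tested, 19.9% had these directions and 0.714% had a response difference of -1 or less. The share of all genes with both was not counted. The response of PC3-EMT1 minus that of PC3-EMT14 was -2.10 for OAS1, -1.96 for IFI27, -1.89 for IFI44L, -1.84 for RSAD2, -1.75 for MX1 and -1.66 for CMPK2. It was -1.59 for the sensor IFIH1, -1.46 for MX2, -1.43 for IFIT2, -1.37 for HERC6, -1.12 for IFIT1 and -1.06 for DTX3L. The difference was not tested, since 1 array per line and state leaves no degree of freedom. All 12 values use the Scr array of PC3-EMT1, the highest transduced array for 38 of the 44 genes and for 22.0% of all genes tested. IFITM1 and OAS2 also differed by at least 1, but sh4 was below Scr in both lines. PC3-EMT14 with Scr lay under the bacterial controls for OAS1, IFI27, RSAD2 and MX2, so the order of these values is not to be read.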

How the results depend on the processing

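In EMT against PC3-Epi, 5 to 7 of the listed genes were higher under every alternative. The 4 lower genes became 1 with a filter at log2 7 and 8 with the median of the bacterial controls subtracted, and 2 to 6 when 1 EMT line was left out (2 without PC3-EMT12 or PC3-EMT14, 6 without PC3-EMT1). That subtraction moved the median of all genes to -0.06, against 0.10, and that of the 44 genes likewise to -0.06, against 0.10, with 939 genes higher and 2617 lower in place of 1676 and 1884; without PC3-EMT14 there were 695 and 1079. The 2-fold count of higher genes, 4, became 7 at 1.5-fold and 0 at 3-fold. That of lower genes, 2, became 1 with the mean of probe sets and 0 at 3-fold, with 32 added on the linear scale or with the filter at log2 7. No listed gene passed in sh4 against Scr under any alternative, although the 6 arrays with the line as replicate block called 114 genes higher and 94 lower, other scalings between 54 and 112 higher and 26 to 46 lower, the mean of probe sets 22 and 5, and the fit with no replicate block 1 and 0; 0 and 0 were called with no filter, with a filter at log2 5 or with an array left out. For PC3-EMT1 minus PC3-EMT14, the 13 genes became 7 with 32 added on the linear scale, 10 with the mean of probe sets (9 of them shared), 11 with a filter at log2 5 (without IFIT2 and OAS2, adjusted p = 0.0515 for each), 0 with no replicate block, which leaves the difference in scale between the sets in the residual, and 0 to 16 when the arrays of 1 state were left out. Over all genes, 57 higher and 291 lower became 0 and 0 with no replicate block or without the EMT arrays, 34 and 123 without the sh4 arrays, 101 and 371 without the Scr arrays, 30 and 177 with 32 added, 61 and 532 with the control subtraction and 121 and 485 with the trend and robust eBayes. The 3 genes at 2-fold in every state became 12 at 1.5-fold and 0 at 3-fold. No gene that had passed a test or the 2-fold rule changed direction under an alternative. Among the 44 genes some did: in EMT against PC3-Epi 27 were above 0, and 20 with the control subtraction. The cause of these changes was not tested.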
